A study of Rattus norvegicus with 11 samples.

Results

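A set of 10 genes that mark the interneurons of the striatum was followed in RNA of the rat striatum at day 3 after intracerebral hemorrhage (ICH). They were chosen by name, as textbook markers of striatal interneurons, and not by a threshold on a measured value: Chat, Slc5a7, Lhx8, Lhx6, Sst, Npy, Nos1, Pvalb, Calb2 and Th. All 10 were found among the 30560 genes of the file, and all 10 passed the filter on low counts that left 15742 genes for testing.

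The rats were adult male Sprague-Dawley animals, and the tissue was the ipsilateral striatum, or the corresponding region of Normal rats, with 1 poly(A) library per rat. IC, the common ICH, had 0.2 U collagenase VII-S in 1 μL injected into the right striatum (3 rats), and IS, the severe ICH, had 0.6 U in 3 μL (3 rats). IS-HA received the IS dose and had 150 μL of hematoma aspirated through a catheter after 6 h (3 rats). Normal rats received neither injection nor aspiration (2 rats), so the needle track and anesthesia are not matched in them. Collagenase opens vessels enzymatically, so all 9 hemorrhage rats share the enzyme as well as the bleeding.

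Most neurons of the striatum are medium spiny projection neurons, and interneurons are a small minority. Cholinergic interneurons are large, tonically active cells that make acetylcholine with choline acetyltransferase (Chat) and take up choline through the transporter Slc5a7. GABAergic interneurons fall into classes that hold parvalbumin (Pvalb), calretinin (Calb2), tyrosine hydroxylase (Th), or the set of somatostatin (Sst), neuropeptide Y (Npy) and neuronal nitric oxide synthase (Nos1). Lhx6 and Lhx8 are LIM homeobox transcription factors of the medial ganglionic eminence, where many of these cells are born. Lhx8 is kept mainly in cholinergic cells and Lhx6 mainly, but not only, in GABAergic cells.

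Library totals ran from 6701301 counts in IS-HA replicate 2 to 18817645 in IC replicate 3, and the lowest count of any interneuron gene was 4, for Th in an IS rat, against a floor of 3 counts. In the Normal rats the medium spiny neuron genes summed to 7330 and 6970 TPM, a unit that scales counts for gene length and library, so the defining genes of the tissue were present. Summed TPM of 12 microglia and macrophage genes was 264 and 371 in Normal rats and 2450 to 6030 in the hemorrhage rats. Summed TPM of 12 pan-neuronal genes was 4760 and 5920 in Normal rats and 1140 to 3660 in the hemorrhage rats. In bulk tissue, fewer cells of a type and less RNA per cell cannot be told apart.

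Somatostatin, neuronal nitric oxide synthase and tyrosine hydroxylase are genes known for control by cyclic AMP through the response element TGACGTCA, which reads the same on both strands. RefSeq promoters of build GRCr8 (250 bases before to 50 after each start) matched 9 of the 10 genes. The full element was found in 3 of them, Sst, Nos1 and Th, against 612 of 33469 promoters (1.83%). The windows around it are printed 5′ to 3′ with the element in capitals.
Sst, chr11:90461502-90461595, plus strand: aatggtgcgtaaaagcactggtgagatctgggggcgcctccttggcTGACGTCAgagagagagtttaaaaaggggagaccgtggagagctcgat
Nos1, chr12:44371793-44371892, minus strand: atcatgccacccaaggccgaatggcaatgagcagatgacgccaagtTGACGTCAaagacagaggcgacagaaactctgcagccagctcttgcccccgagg
Th, chr1:207508234-207508333, minus strand: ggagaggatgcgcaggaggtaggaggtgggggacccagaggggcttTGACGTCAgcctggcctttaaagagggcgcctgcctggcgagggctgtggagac
The element began 69 bases before the start of Th and 9 bases before that of Nos1, and it lay just past the annotated start of Sst. A match of letters is a description and not a measured binding site.

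Against Normal, 8 of the 10 interneuron genes were lower in IS, 5 in IS-HA and 3 in IC, where 17%, 7.71% and 2.66% of all genes tested were. In IS the log2 fold changes of the 8 ran from -1.14 for Npy to -3.79 for Slc5a7, while Calb2 and Th were not called. A gene was called where edgeR's quasi-likelihood test, adjusted by Benjamini-Hochberg over all 15742 genes, gave an adjusted p under 0.05 with at least a 2-fold change. All 3 comparisons with Normal share the same 2 Normal rats.

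Chat, the enzyme that makes acetylcholine, stood at 13 and 12 TPM in the Normal rats and at 6.16, 5.35 and 6.49 TPM in IC. It stood at 1.19, 3.29 and 0.855 TPM in IS and at 3.92, 2.28 and 3.75 TPM in IS-HA. Every hemorrhage rat lay below both Normal rats, and every IS rat lay below every IC rat. The log2 fold change was -2.78 ± 0.43 (standard error, SE) in IS against Normal (edgeR adjusted p = 0.000649) and -1.95 ± 0.42 in IS-HA against Normal (edgeR adjusted p = 0.00627). In IC against Normal it was -1.12 ± 0.41 and not called (edgeR adjusted p = 0.0802).

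Slc5a7, the choline transporter that limits the rate of acetylcholine synthesis, had the largest fall of the 10 genes in IS. It stood at 22.7 and 19.7 TPM in Normal, 13, 8.63 and 9.98 TPM in IC, 1.83, 1.86 and 0.855 TPM in IS, and 7.82, 1.55 and 4.78 TPM in IS-HA. The IS rats lay below all IC rats, while the IS-HA rats spread from the IS range nearly to the IC range. Against Normal it changed by a log2 fold change of -3.79 ± 0.47 in IS (edgeR adjusted p = 0.000174) and -2.23 ± 0.43 in IS-HA (edgeR adjusted p = 0.00389).

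Lhx8, the transcription factor of cholinergic cells, stood at 11 and 7.11 TPM in Normal, 5.53, 4.15 and 4.78 TPM in IC, 0.799, 2.39 and 2.04 TPM in IS, and 2.84, 3.29 and 2.15 TPM in IS-HA. As for Chat and Slc5a7, no hemorrhage rat reached the Normal rats and no IS rat reached the IC rats. Lhx8 had a log2 fold change of -2.36 ± 0.46 in IS against Normal (edgeR adjusted p = 0.00221) and -1.73 ± 0.45 in IS-HA against Normal (edgeR adjusted p = 0.0153), and the latter call was lost without Normal replicate 1 (-1.3, edgeR adjusted p = 0.123).

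Other cholinergic genes gave similar values. Of 7 listed, 5 could be tested, and 4 were lower in IS, 4 in IS-HA and 1 in IC. Over all genes tested, 17%, 7.71% and 2.66% were. The vesicular glutamate transporter Slc17a8, which cholinergic interneurons also hold, had the lowest value of the list in IS (log2 fold change -3.1 ± 0.47). Ache, which breaks acetylcholine down, was the gene called in IC (-1.19 ± 0.24). Ngfr, the low-affinity neurotrophin receptor, was not called in any of these comparisons (-0.42 ± 0.41 in IS). The medians of the 5 log2 fold changes were -0.86, -2.49 and -1.58 in IC, IS and IS-HA, beside 0, 0.02 and 0.06 over all genes tested.

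Lhx6, kept mainly in GABAergic interneurons of the medial ganglionic eminence, was lower in all 3 hemorrhage groups. It stood at 14.6 and 13.9 TPM in Normal, 5.49, 4.02 and 3.41 TPM in IC, 2.67, 1.51 and 1.03 TPM in IS, and 4.21, 2.16 and 5.08 TPM in IS-HA. Both Normal rats stood far above the highest hemorrhage rat, and the IS rats lay below the IC rats without overlap. Lhx6 had log2 fold changes of -1.79 ± 0.33 in IC, -3.02 ± 0.36 in IS and -1.94 ± 0.34 in IS-HA against Normal (edgeR adjusted p = 0.00425, 0.00014 and 0.0022).

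Nos1, which makes nitric oxide in the same cells that hold Sst and Npy, was also lower in all 3 groups. It stood at 6.45 and 12 TPM in Normal, 2.98, 1.3 and 1.57 TPM in IC, 1.44, 0.542 and 0.361 TPM in IS, and 2.64, 0.819 and 2.76 TPM in IS-HA. The Normal rats differed from each other by a larger ratio than for any other of the 10 genes, but both lay above every hemorrhage rat. Nos1 had log2 fold changes of -2.28 ± 0.51 in IC, -3.52 ± 0.56 in IS and -2.18 ± 0.52 in IS-HA against Normal (edgeR adjusted p = 0.012, 0.000697 and 0.0102). Without Normal replicate 3 the calls in IC and IS-HA were lost (edgeR adjusted p = 0.145 and 0.11), as was that in IC without IC replicate 3 (edgeR adjusted p = 0.058).

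Sst, the inhibitory peptide somatostatin, had the highest TPM of the 10 genes in every group. It stood at 372 and 339 TPM in Normal, 197, 130 and 202 TPM in IC, 141, 140 and 84.5 TPM in IS, and 207, 231 and 162 TPM in IS-HA. All hemorrhage rats lay below Normal, and all IS-HA rats lay above all IS rats. Sst had log2 fold changes of -1.06 ± 0.3 in IC and -1.54 ± 0.3 in IS against Normal (edgeR adjusted p = 0.0347 and 0.00224), and in IS-HA it was -0.82 ± 0.3 and not called (edgeR adjusted p = 0.0591). Without IS-HA replicate 2 it was called in IS-HA (-1.09, edgeR adjusted p = 0.0174). The IC call was lost without either Normal rat, IC replicate 2 or IC replicate 3 (edgeR adjusted p = 0.162, 0.119, 0.0623 and 0.12).

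Npy, a peptide of the same cells, stood at 173 and 123 TPM in Normal, 89.3, 64.3 and 94.8 TPM in IC, 72.2, 70 and 59.5 TPM in IS, and 78.6, 95.9 and 59.5 TPM in IS-HA. No hemorrhage rat reached the Normal rats, and the 3 hemorrhage groups overlapped. The log2 fold change was -1.14 ± 0.32 in IS against Normal (edgeR adjusted p = 0.0132), a call lost without Normal replicate 1 (-0.79, edgeR adjusted p = 0.131). In IC and IS-HA it was -0.9 ± 0.32 and -0.92 ± 0.32, short of the 2-fold limit (edgeR adjusted p = 0.0729 and 0.0481). In IC the adjusted test was not passed either. In IS-HA Npy was called without IS-HA replicate 2 (-1.24, edgeR adjusted p = 0.00852).

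Pvalb, the calcium buffer of fast-spiking interneurons, stood at 22.3 and 35.9 TPM in Normal, 15.3, 26.3 and 16.5 TPM in IC, 16, 9.47 and 3.08 TPM in IS, and 31, 12.2 and 8.51 TPM in IS-HA. IC and IS-HA each held a rat within the Normal range, and IS did not. The log2 fold change in IS against Normal was -1.6 ± 0.57 (edgeR adjusted p = 0.0376), and that call was lost without either Normal rat, IC replicate 4, IS replicate 3 or IS replicate 4 (edgeR adjusted p from 0.0525 to 0.2).

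**Figure D1:**
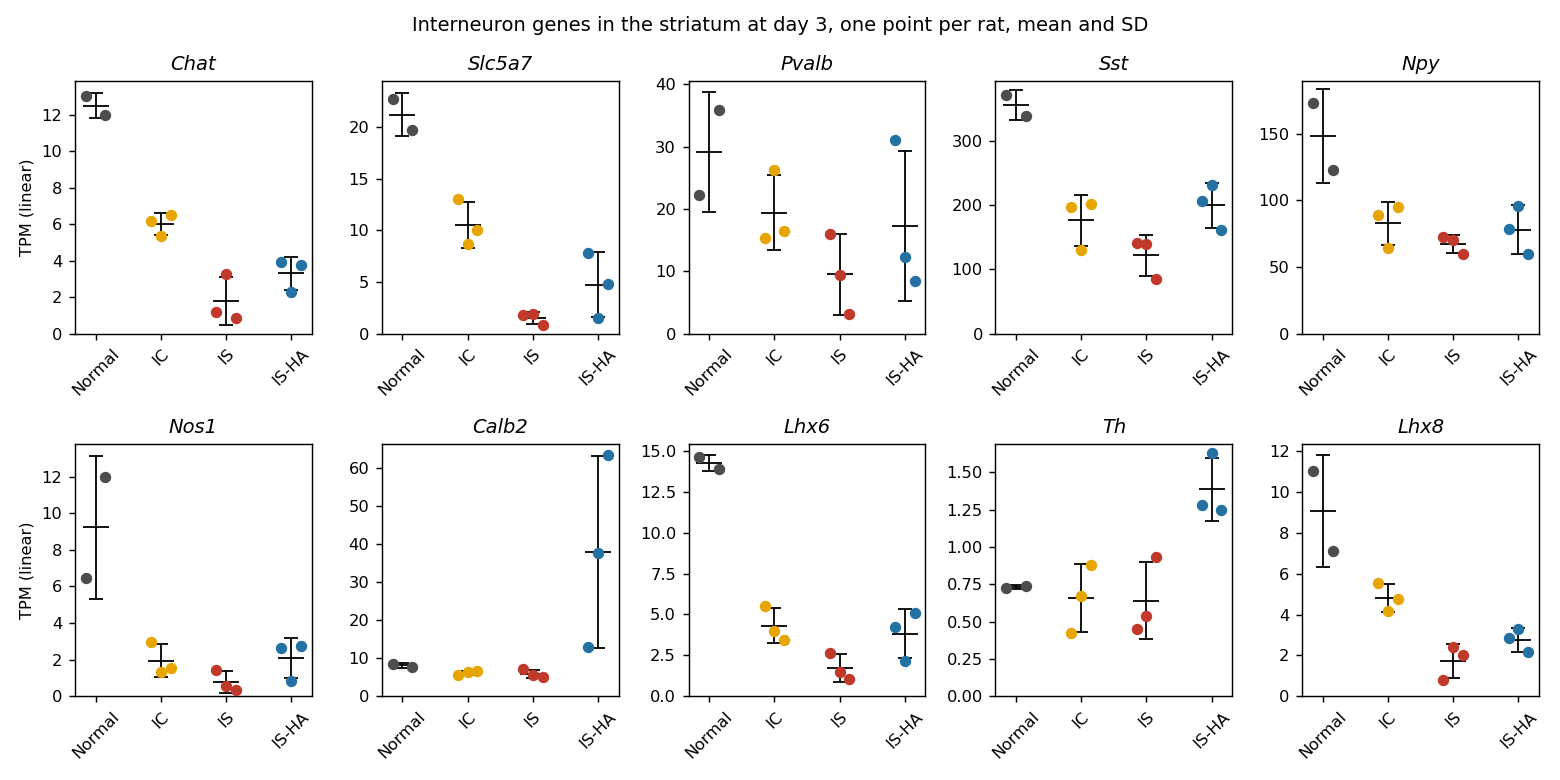
TPM of the 10 interneuron genes (linear y axis from 0, a separate scale for each gene) in each rat of Normal, IC, IS and IS-HA, with bars for the mean and SD. In 7 genes both Normal rats stand above every hemorrhage rat, as in 18.4% of all genes tested. Chat falls from a mean of 12.5 TPM in Normal to 1.78 TPM in IS, and Calb2 is spread from 13 to 63.4 TPM in IS-HA.

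Read against all genes, 3 of the 10 were lower in IC, where 2.66% of genes tested were called lower, and 8 were lower in IS, where 17% were. In IS-HA 5 were lower (Chat, Slc5a7, Lhx8, Lhx6 and Nos1), where 7.71% of genes were. The mean of the 3 hemorrhage groups against Normal called 6 lower (Chat, Slc5a7, Lhx8, Lhx6, Nos1 and Sst), where 12% of genes were, and the calls of Sst and Lhx8 were lost without Normal replicate 1 (edgeR adjusted p = 0.0513 and 0.0712). In TPM, 7 of the 10 had all 9 hemorrhage rats below both Normal rats, a pattern that 18.4% of genes tested showed. Each of those 7 had p = 0.0364 in a two-sided exact permutation test on log2(TPM + 1), the smallest that 9 against 2 rats allow, and 0.156 after adjustment over 30 such tests. The count in IC was 1 without Normal replicate 3, 1 without IC replicate 3 and 5 without IS-HA replicate 2. That last rat is in neither group compared, but it enters the filter, the scaling and the estimate of spread. The shares of all genes called in these fits are not reported here.

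**Figure D2:**
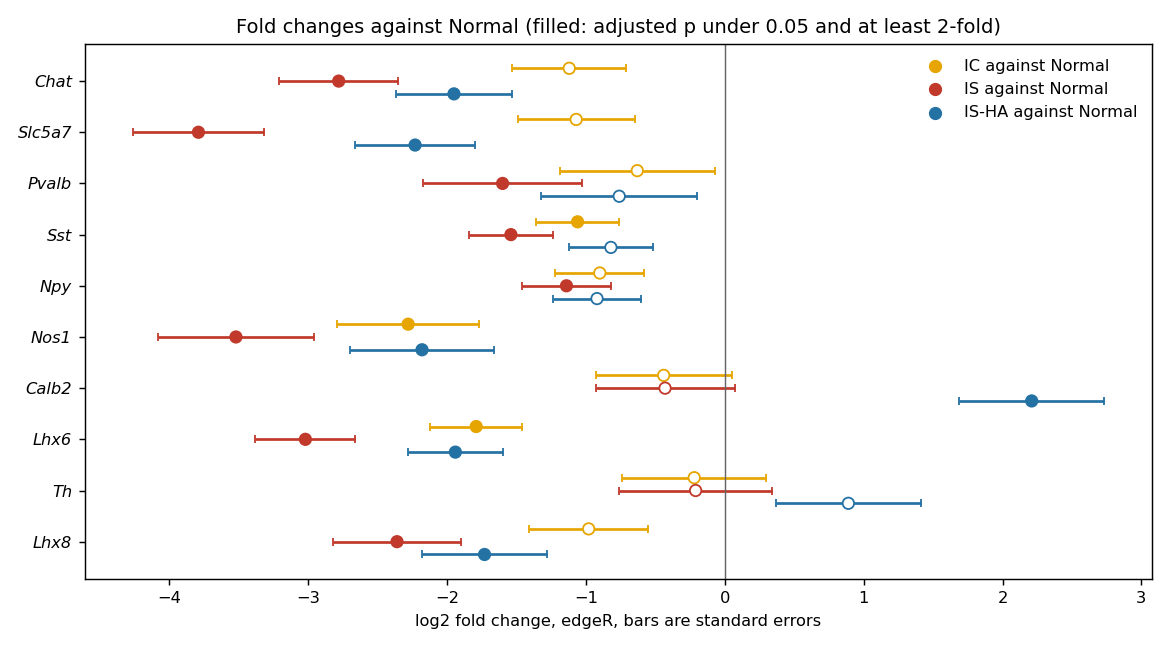
Log2 fold change of each interneuron gene in IC, IS and IS-HA against Normal (x axis), with bars of 1 standard error and filled points for called genes. Values in IS lie furthest left for 8 genes, at -3.79 for Slc5a7, and the 1 called point to the right is Calb2 in IS-HA at 2.21.

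Gene length differed among the interneuron genes. Relative length was read from the ratio of counts to TPM and set to 1 for Sst. Npy (0.942) and Sst (1), with the mildest called falls in IS, were the shortest, and Nos1 (7.07) and Slc5a7 (7.45), with the deepest, were the longest. Pvalb was at 1.93, Calb2 at 2.63, Lhx8 at 2.71, Th at 2.73, Lhx6 at 3.71 and Chat at 5.47. Calb2, Th and Lhx8 are of nearly equal length, with log2 fold changes of -0.43, -0.21 and -2.36 in IS. Over all genes tested the median log2 fold change in IS against Normal went from 0.52 in the 3149 shortest genes to -0.55 in the 3149 longest, and in IS-HA from 0.53 to -0.38.

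With this trend taken out of each rat, all 8 genes were still called lower in IS, as were 14.9% of genes tested. The peptide genes then fell further, Sst by 2.21 and Npy by 1.79 on the log2 scale, and Slc5a7 fell by 3.46. With the trend removed 7 genes were lower in IS-HA, with Sst (-1.46 ± 0.26) and Npy (-1.55 ± 0.22) added, and 8 in the mean of the hemorrhage groups, where 7.28% and 10.5% of genes were. The part of RNA quality in these values was not tested.

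**Figure D3:**
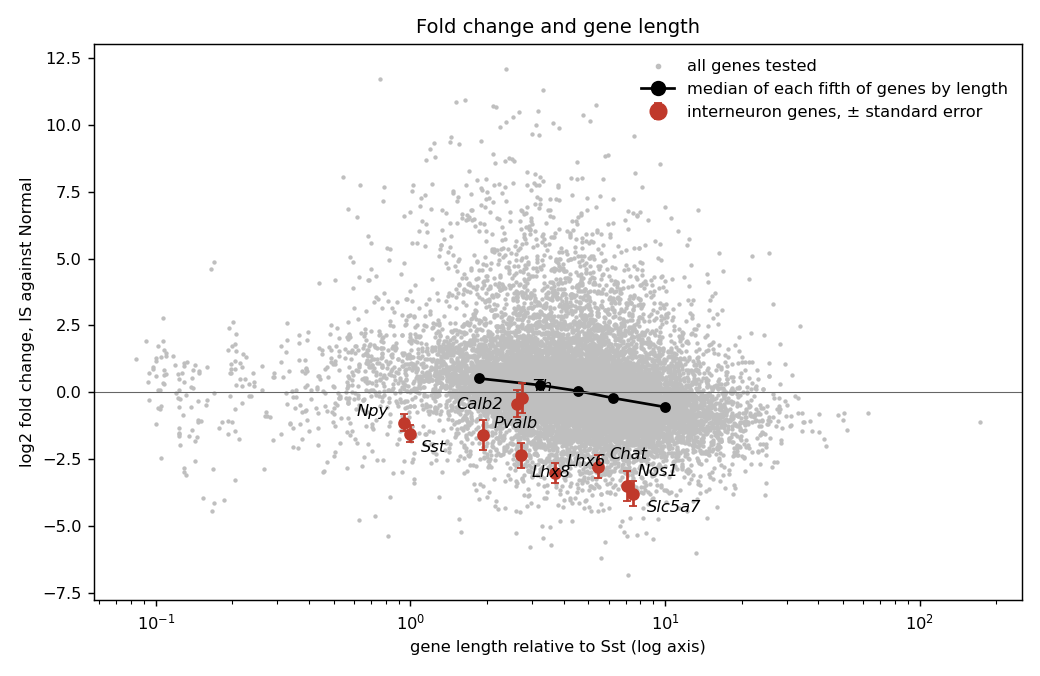
Log2 fold change in IS against Normal (y axis) against gene length relative to Sst (log x axis) for all genes tested (grey), with the median of each of 5 equal groups by length (black) and the interneuron genes with standard errors (red). The black line descends from 0.52 to -0.55, and the interneuron genes lie below it at each length, from Npy at -1.14 to Slc5a7 at -3.79.

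Between the hemorrhage groups, which share no Normal rats, some of the interneuron genes separated by TPM without passing the adjusted test. In IS against IC, 0 of the 10 genes were called by edgeR, as were 0% of all genes. At an unadjusted p under 0.05, 5 were lower (Chat, Slc5a7, Nos1, Lhx6 and Lhx8), where 22.2% of all genes passed in either direction, and DESeq2's Wald test called 4 (Chat, Slc5a7, Lhx6 and Lhx8), where it called 2.36% of genes lower. In TPM those 4 had all IS rats below all IC rats, as 18% of genes did. The log2 fold change of Slc5a7 was -2.72 ± 0.43 (edgeR adjusted p = 0.143). Without IS-HA replicate 2, whose library is the smallest, edgeR called the same 4 (Slc5a7 edgeR adjusted p = 0.0154). That rat is in neither group compared, and enters through the filter, the scaling and the estimate of spread. The share of all genes called in that fit is not reported here, so the count of 4 is not a result about these genes alone. A permutation test of 3 against 3 rats cannot go below 0.1.

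In IS-HA against IS all 10 log2 fold changes were above 0, from 0.22 ± 0.29 for Npy to 2.65 ± 0.47 for Calb2. None was called by edgeR, and 0.00635% of all genes were called higher. At an unadjusted p under 0.05 there were 6 genes, where 8.94% of all genes passed in either direction, and DESeq2 called 1, Calb2, where it called 0.249% of genes higher. In TPM, Sst, Calb2 and Th had all IS-HA rats above all IS rats, as 3.6% of genes did. Slc5a7 stood at 1.56 ± 0.43 (edgeR adjusted p = 0.499) and passed without IS-HA replicate 2 (1.9, edgeR adjusted p = 0.0342), as did Calb2 (2.51, edgeR adjusted p = 0.0376). The share of all genes that passed in that fit is not reported here. For the 12 pan-neuronal genes the median was 0.63 on the same log2 scale, with none called. With those genes held constant, Npy stood at -0.49 ± 0.53, Lhx8 at -0.19 ± 0.7, Sst at 0.09 ± 0.48 and Chat at 0.12 ± 0.53, and none of the 10 was called. This comparison shares the IS rats with the one before it.

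IS replicate 4 was the lowest of all 11 rats for Chat, Slc5a7, Pvalb, Sst, Nos1, Calb2 and Lhx6, and for Npy it stood at 59.5 TPM, the value of IS-HA replicate 3. The same rat had the lowest summed pan-neuronal level, 1140 TPM, and the highest microglia and macrophage level, 6030 TPM. Its 10 cortical glutamatergic genes summed to 69.6 TPM, against 500 and 248 TPM in the other IS rats and 332 and 601 TPM in Normal. Sst, Npy and Pvalb are also made by cortical interneurons, and the part of cortical tissue in their levels was not tested.

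Calretinin went the other way. Calb2, a calcium-binding protein of a GABAergic interneuron class, stood at 8.5 and 7.69 TPM in Normal, 5.59, 6.36 and 6.63 TPM in IC, and 7.16, 5.6 and 5.16 TPM in IS. In IS-HA it stood at 13, 37.6 and 63.4 TPM in replicates 1, 2 and 3. All IS-HA rats lay above the other 8 rats, and the 6 IC and IS rats lay below both Normal rats, with log2 fold changes of -0.44 ± 0.49 and -0.43 ± 0.5 that were not called. The log2 fold change in IS-HA against Normal was 2.21 ± 0.52 (edgeR adjusted p = 0.0101), where 15.1% of genes were called higher. It was lost without either Normal rat (edgeR adjusted p = 0.0552 and 0.0993), and with replicates 2 and 3 of IS-HA both left out it was 0.52 (edgeR adjusted p = 0.284).

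Some genes of regions next to the striatum were high in some of the same rats, and others were not. Oxt, the hypothalamic hormone oxytocin, stood at 2.87, 110 and 17.7 TPM in IS-HA replicates 1, 2 and 3, and at 0 to 13.2 TPM in the other 8 rats. Pmch, a peptide of the lateral hypothalamus, stood at 0.205, 13 and 20.8 TPM, against 0.206 to 3.93 TPM elsewhere. Hcrt, also on the hypothalamic list, did not follow Calb2. It stood at 7.53, 26 and 4.28 TPM in the IS-HA rats, and reached 16.3 TPM in an IC rat and 12.3 TPM in an IS rat. Slc17a6, the glutamate transporter of thalamic neurons, stood at 18.5, 8.03 and 34 TPM, against 0.0703 to 10.3 TPM elsewhere. Over the whole lists, 6 hypothalamic genes summed to 37.4, 251 and 86.7 TPM in these 3 rats and 23.1 to 66.2 TPM elsewhere, and 6 thalamic genes to 86.2, 32.4 and 108 TPM and 22.2 to 46.7 TPM elsewhere. Calretinin is abundant in parts of both regions, and the part of such tissue in the Calb2 values was not tested.

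**Figure D4:**
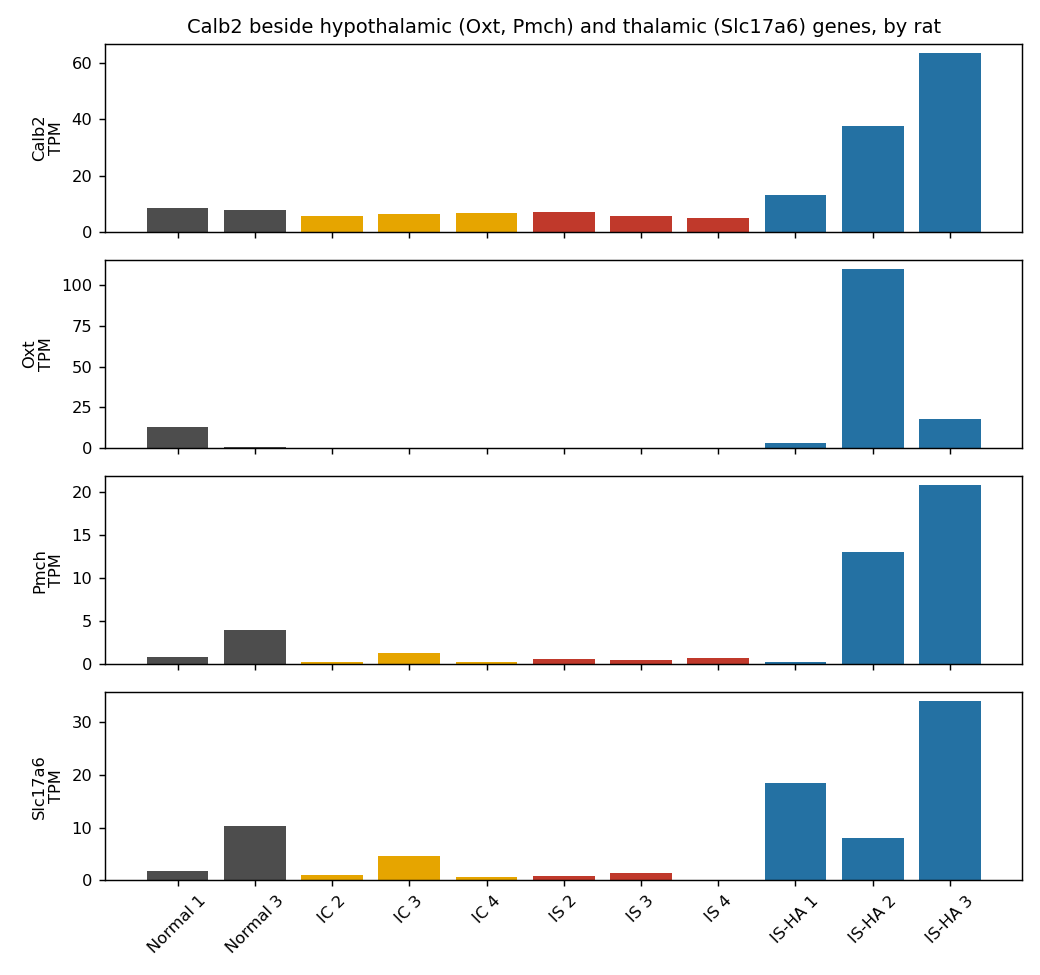
TPM (linear y axes from 0) of Calb2, the hypothalamic genes Oxt and Pmch and the thalamic gene Slc17a6 in each of the 11 rats, coloured by group. Calb2 is highest in IS-HA replicates 2 and 3 (37.6 and 63.4 TPM), the rats in which Pmch reaches 13 and 20.8 TPM. Other genes of the hypothalamic and thalamic lists are not drawn, and some of them do not follow these rats, such as Hcrt (4.28 TPM in IS-HA replicate 3).

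Th, which makes the dopamine precursor and marks a small interneuron class, was near the limit of these libraries, with 4 to 15 counts. It stood at 0.724 and 0.741 TPM in Normal, 0.427, 0.673 and 0.88 TPM in IC, 0.452, 0.539 and 0.932 TPM in IS, and 1.28, 1.63 and 1.25 TPM in IS-HA. All IS-HA rats lay above the other 8, but the log2 fold change against Normal, 0.89 ± 0.52, was not called (edgeR adjusted p = 0.201). Messenger RNA of dopamine axons resides mostly in the midbrain, so Th here does not report the dopamine input.

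Of 8 genes of dopamine synthesis and dopamine axons, 5 passed the filter, and 2 were higher in each of the 3 hemorrhage groups. Of all 15742 genes tested, 1720 were higher in IC, 2959 in IS and 2383 in IS-HA. Gch1, which makes the cofactor of tyrosine hydroxylase, rose by a log2 fold change of 3.23 ± 0.61 in IS, from a mean of 0.757 TPM to 7.14 TPM. Slc18a2, the vesicular monoamine transporter, rose by 3.04 ± 0.62, from 0.159 TPM to 1.34 TPM. Its Normal rats stood at 0.0447 and 0.274 TPM, below the Th values that were near the limit, so the size of this rise is uncertain. Gch1 and Slc18a2 are also made outside neurons, by immune cells among others. All 12 microglia and macrophage genes were higher in each group, and the part of such cells in these values was not tested. Ddc, the next enzyme after tyrosine hydroxylase, was lower in IS (-1.66 ± 0.39).

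Of 14 other genes of GABAergic interneurons, 3 were lower in IC, 9 in IS and 5 in IS-HA, where 2.66%, 17% and 7.71% of all genes were. Erbb4, the neuregulin receptor of Pvalb cells, had the lowest value in each comparison (-4.7 ± 0.58 in IS), at a relative length of 7.25. Cox6a2, a mitochondrial subunit of fast-spiking cells, was higher in IS (1.71 ± 0.52) and IS-HA (1.79 ± 0.52), at 0.723, the shortest of the list. The peptides Vip, Crh, Cck and Tac3 were not called in any of the 3 groups. With pan-neuronal genes held constant, 1 of the 14 was lower and 1 higher in the mean of the hemorrhage groups, where 1.02% and 57.1% of all genes were.

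Of 12 interneuron transcription factors, 7 were lower in IS and 3 in IS-HA, where 17% and 7.71% of all genes were, and 1, Maf, was higher in all 3 groups. Dlx5, which acts with Lhx6 in these lineages, had log2 fold changes of -2.04 ± 0.29 in IS and -1.76 ± 0.28 in IS-HA. Maf stood at a mean of 8.37 TPM in Normal and 36.7 TPM in IS, a log2 fold change of 2.15 ± 0.37, and it is known in macrophages as well as in interneurons. Prox1, of a caudal lineage, had the lowest value in IS at -2.53 ± 0.62. With pan-neuronal genes held constant, 0 of the 12 were lower and 2 higher in the mean of the hemorrhage groups, where 1.02% and 57.1% of all genes were.

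Receptors for interneuron transmitters are carried mainly by the cells that interneurons contact. Of 18, 10 were lower in IS and 6 in IS-HA, where 17% and 7.71% of all genes were, and none was higher. The muscarinic receptor Chrm5 went from a mean of 2.11 TPM in Normal to 0.465 TPM in IC, and was at 0 to 0.0823 TPM in the IS rats. The nitric oxide receptor subunit Gucy1a2 was lower in IC, IS and IS-HA (-2.56 ± 0.57, -4.21 ± 0.67 and -2.53 ± 0.58). The somatostatin receptor Sstr4 was lower in IC (-1.31 ± 0.34) and stood at -0.03 ± 0.34 in IS. With pan-neuronal genes held constant, 2 of the 18 were lower and 0 higher in the mean of the hemorrhage groups, where 1.02% and 57.1% of all genes were.

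Whether interneuron genes changed more than neuronal genes at large was read by holding the mean of 12 pan-neuronal genes constant in every rat. On that scale Nos1 (-1.46 ± 0.41), Slc5a7 (-1.16 ± 0.4) and Lhx6 (-1.02 ± 0.41) were called lower in the mean of the hemorrhage groups, as were 1.02% of genes (edgeR adjusted p = 0.00932, 0.021 and 0.0389). In IS against Normal the same 3 were lower, as were 1.56% of genes, with Slc5a7 at -2.13 ± 0.51. Calb2 was higher (1.79 ± 0.62, edgeR adjusted p = 0.0214), as were 57.1% of all genes on this scale. Sst (0.19 ± 0.46), Npy (0.37 ± 0.51), Pvalb (0.26 ± 0.5), Lhx8 (-0.33 ± 0.59) and Chat (-0.68 ± 0.46) were not called.

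These calls depended on single rats. All 4 were lost without Normal replicate 1 and without Normal replicate 3, and that of Lhx6 was lost in 8 of the 11 fits that left out 1 rat (edgeR adjusted p from 0.0542 to 0.297). With gene length corrected as well, Nos1 (-1.14) and Lhx6 (-1.06) were called lower, as were 0.896% of genes, while Slc5a7 was not (-0.84, edgeR adjusted p = 0.077), and Sst moved to -0.3. With 12 medium spiny neuron genes held constant instead, Slc5a7 stood at -0.65 ± 0.51, Nos1 at -0.89 ± 0.55 and Lhx6 at -0.45 ± 0.57, none of them called, and Calb2 (2.32 ± 0.62) and Th (1.93 ± 0.83) were called higher, as were 75.9% of genes. In single comparisons on that scale Slc5a7 was called lower in IS against Normal (-1.63 ± 0.63, edgeR adjusted p = 0.0133), as were 0.616% of genes, and in IS against IC (-1.53 ± 0.58, edgeR adjusted p = 0.0246), as were 0.127%. Of those 12 medium spiny genes, 11 were lower in the mean of the hemorrhage groups, with a median log2 fold change of -1.49, beside -1.42 for the 10 interneuron genes.

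**Figure D5:**
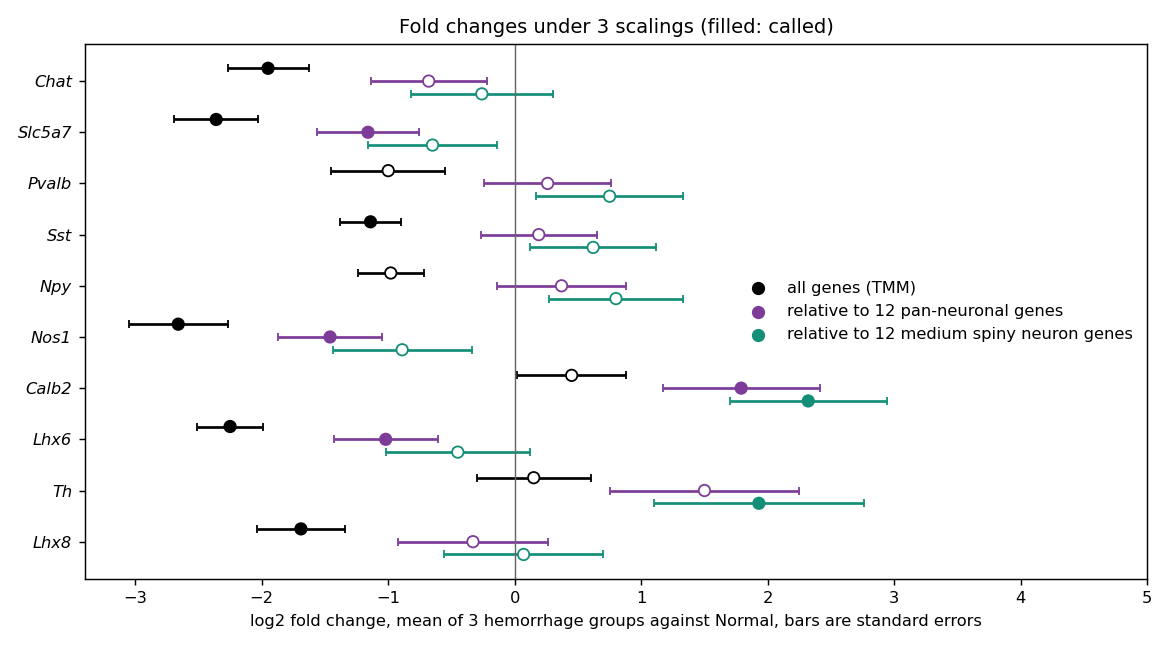
Log2 fold change of each interneuron gene in the mean of the 3 hemorrhage groups against Normal (x axis) under TMM scaling, relative to pan-neuronal genes and relative to medium spiny neuron genes, with bars of 1 standard error and filled points for called genes. Nos1 moves from -2.66 to -1.46 and -0.89, and Sst crosses from -1.14 to 0.19 and 0.62.

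The genes whose profile over the 11 rats lay nearest to each interneuron gene were ranked by the root mean square difference of centred log2 CPM, counts scaled to library size. Ppp4r4 (0.27) and Slc10a4 (0.29) were among the genes near Chat. Slc5a7 lay nearest to Htr1b (0.36), Sst to Elavl3 (0.17), Npy to Tmem132e (0.19), Pvalb to Nefh (0.33) and Nos1 to Ptprt (0.23). Cntnap2, an axonal adhesion molecule, was the nearest of Lhx6 (0.29) and the third of Nos1 (0.28). Among named genes Lhx8 lay nearest to Ebf1 (0.38) and Th to Dynlt5 (0.27). Calb2 had no close neighbour, the nearest being Arhgap36 at 0.64. Nearness in 11 rats that differ in neuronal content is a description.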

How the data were processed

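RNA-seq of 11 rats in 4 groups was analysed. The authors deposited raw counts of reads for each gene, not normalized, together with TPM, scaled for length. The submitters' processing notes name fastp 0.20.0, HISAT2 2.1.0, SAMtools 1.9, featureCounts and build mRatBN7.2; the strand setting of the counting is not given in the sources used here, so overlapping antisense reads cannot be told apart. Groups were taken from the labels, and each rat is a separate animal.

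Counts were filtered with filterByExpr, normalized by TMM and tested with edgeR 4.0.16 (R 4.3.3; one quasi-likelihood fit over the 4 groups, Benjamini-Hochberg over 15742 genes; called at adjusted p under 0.05 and absolute log2 fold change of at least 1). SEs were derived from the size of each log2 fold change and its F statistic (log2 fold change over root F). Totals of 6701301 to 18817645 counts set the precision, and the floor of 3 counts covers counting error only. TPM was compared by exact permutation tests with a pseudocount of 1. Alternatives were other scalings, filters, DESeq2 1.42.0, limma 3.58.1 on log2 TPM, only the groups compared, a replicate block and each rat left out. A length correction (a smooth trend per rat), the medium spiny reference and leaving out both IS-HA replicates 2 and 3 were chosen after seeing the data, as were the hypothalamic and thalamic lists. Scripts were tested on simulated data.

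The genes named are the 10 interneuron genes, the called genes with the lowest and highest fold change of each other list, and some of the 3 nearest profiles of each interneuron gene, most of which are not reported here. Others (Ngfr, Ddc, the uncalled peptides, and the hypothalamic and thalamic genes) were named after their values were seen. The interneuron genes and lists were chosen with earlier results of these data known. Plots were drawn with matplotlib.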

Additional observations from a re-analysis of the deposited data

How the results depend on the processing

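Counts below are of the 10 interneuron genes called. Requiring at least 10 counts in every rat, which by construction drops genes with low counts, left 1 in IC, 5 in IS, 3 in IS-HA and 3 in the mean of the hemorrhage groups against Normal. Fitting only the groups compared gave 5 in IC. DESeq2's Wald test gave 4 in IS against IC, where it called 2.36% of genes lower, and 1 in IS-HA against IS, where it called 0.249% higher. With IS-HA replicates 2 and 3 both left out there were 2 in IS-HA against Normal and 1 in IS against IC. Relative to pan-neuronal genes, 4 were called, where 1.02% of genes were lower and 57.1% higher. With the medium spiny reference 2 were called, both higher, as were 75.9% of genes. Leaving out 1 rat gave 1 to 5 in IC against Normal, 0 to 4 in IS against IC, 0 to 2 in IS-HA against IS and 0 to 5 relative to pan-neuronal genes. The cause of these changes was not tested. For the other fits of this paragraph the shares of all genes are not reported here, so their counts are not results about the 10 genes alone.

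The replicate numbers of the labels did not pair the rats: 2 of 11 same-numbered pairs had a correlation of deviations above 0.1 (range -0.475 to 0.356). With the replicate block, 0 were called in IC, 7 in IS, 4 in IS-HA, 6 in the mean of the hemorrhage groups and 0 relative to pan-neuronal genes. Over all 15742 genes, the block called 839 in place of 2138 in IC and 2696 in place of 5633 in IS. It called 2241 in place of 3596 in IS-HA and 2241 in place of 4412 in the mean of the hemorrhage groups. The share of all genes relative to pan-neuronal genes with the block is not reported here.

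Directions turned only for values that were not called. Th in IS against IC was 0.01, and -0.01 with no filter, -0.01 with the block, -0.02 and -0.05 by limma and -0.12 with length corrected (-0.36 to 0.3 with 1 rat left out). Calb2 in IS against IC was 0.01, and -0.05 and -0.06 by limma and -0.12 with length corrected (-0.08 to 0.12). Calb2 in the mean of the hemorrhage groups was -0.19 with the block and -0.11 without the 2 IS-HA rats, and Th was -0.14 with the block and -0.11 with length corrected. With 1 rat left out, Th ran from -0.51 to 0.03 in IC and -0.58 to 0.03 in IS against Normal, and Npy from -0.11 to 0.42 in IS-HA against IS. Relative to pan-neuronal genes, Lhx8 was 0.07 with the medium spiny reference (-0.75 to 0.26 with 1 rat left out), Sst -0.15 with the block and -0.3 with length corrected (-0.04 to 0.47), and Pvalb and Npy -0.06 and -0.11 with length corrected. Depth limits Th most, at 4 to 15 counts, and 2 Normal rats limit every comparison with Normal.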
